A study of Mus musculus with 18 samples.

Results

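The guidance ligands and receptors are the cell-surface and secreted proteins first known for steering growing axons: semaphorins with their neuropilin and plexin receptors, ephrins with their Eph receptors, and Slits with their Robo receptors. Members were taken by symbol alone, as every gene of these families to which a probe set of the array is assigned without any other gene. This gave 59 of 18193 genes: 20 semaphorins, 2 neuropilins, 9 plexins, 8 ephrins, 13 Eph receptors, 3 Slits and 4 Robos. Ephb2 had no probe set of its own and was not analysed here. For the 40 members with several probe sets, 136 probe sets over all members, the one of highest mean level on the 18 arrays stood for the gene.

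Cells were sorted from mouse skin or oral mucosa and hybridized to 18 Affymetrix mouse genome expression arrays, in 6 groups of 3. EPF (GFP+ RFP-) and ENF (RFP+ GFP-) cells were taken from the back dermis of mice carrying En1Cre; R26mTmG, labelled postnatal day 56. Oral cells came from the mucosa of the mouth, and Cranial cells from the dermis of the head, of Wnt1Cre; R26mTmG mice. Ventral and Dorsal cells, named for their dermis, also had the En1Cre; R26mTmG genotype, and these 4 site groups were GFP+ RFP- and labelled postnatal day 30. For EPF and ENF mice the protocols name an age of 30 days instead, so their age is not settled. All groups were untreated and were gated to exclude cells with EpCAM, CD31, CD45, Tie2 or DAPI signal, and with a label given as Tie119. In the R26mTmG reporter, Cre switches a cell and its descendants from a red to a green fluorescent protein for good. Wnt1Cre is active in the dorsal neural tube and so marks neural crest descendants, and En1Cre marks, among others, descendants of the embryonic dermomyotome in the trunk. Genotype and body region change together between the head and trunk groups and cannot be told apart.

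Semaphorins signal through plexins, with neuropilins as co-receptors for most of the secreted class 3 members, and change the cytoskeleton and adhesion of the cell that carries the receptor. Eph receptors are tyrosine kinases that bind ephrins on a neighbouring cell, A types mainly ephrins held by a lipid anchor and B types ephrins with a transmembrane segment, and both cells can respond. Slits are large secreted proteins that bind Robo receptors. In the head and skin these families are known for patterning neural crest migration, nerves and blood vessels.

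Levels are log2 expression values as deposited, so a difference of 1 between groups is a doubling, and a gene's level is set only against its own level in other groups. Differences were tested with limma across all 18193 genes, with the 6 EPF and ENF arrays in one fit and the 12 site arrays in another, and a gene is called at a Benjamini-Hochberg adjusted p under 0.05 over all genes. Nothing in the labels says that the 3 arrays of a group are separate animals, so the p-values measure only the spread between these samples. A group mean at or below 4.05, the median over arrays of the lower quartile of all probe sets, is called near background.

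The 12 fibroblast markers were above that line in all 6 groups, with array means of the list between 11.2 and 12.9. Pecam1 and Ptprc, which encode CD31 and CD45, lay between 3.68 and 4.27 on all 18 arrays. Other genes of the lists were higher: the 11 leukocyte markers averaged 5.14 to 5.92 over the arrays, with Laptm5 up to 12.57 and Csf1r up to 10.68, and the 14 endothelial markers 4.72 to 5.26, with Kdr up to 10.29 and Flt1 up to 8.80. Keratinocyte markers averaged 4.68 to 7.60 on EPF arrays and 7.43 to 9.51 on ENF arrays, beside 4.38 to 4.96 on the site arrays. Mural and smooth muscle markers averaged 8.51 to 8.67 on EPF arrays, against 7.11 to 7.28 on ENF arrays and 6.86 to 7.58 on the site arrays. Adipocyte markers averaged 5.22 to 5.32 on Oral and 5.24 to 5.30 on Cranial arrays, below the 5.69 to 6.41 on Ventral and 5.86 to 6.96 on Dorsal arrays. Arrays correlated at r = 0.962 to 0.988 within the EPF and ENF set, 0.946 to 0.998 within the site set and 0.872 to 0.926 between the sets. Dorsal 1 stood apart from Dorsal 2 and Dorsal 3, with a score of 71.5 on the third principal component against -11.2 and -31.2. On the first component Dorsal 3 had 17.1, against 55.9 for Dorsal 1 and 44.7 for Dorsal 2. Ventral 1 had 54.25 there, against 42.4 and 40.5 for Ventral 2 and Ventral 3. Mean correlations with the arrays of the own group were 0.956, 0.971 and 0.960 for Dorsal 1, 2 and 3. They were 0.981, 0.989 and 0.989 for Ventral 1, 2 and 3. ENF 1 and EPF 2 had Xist levels of 4.98 and 5.20, against 11.6 to 12.1 on the other 4 EPF and ENF arrays.

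**Figure D1:**
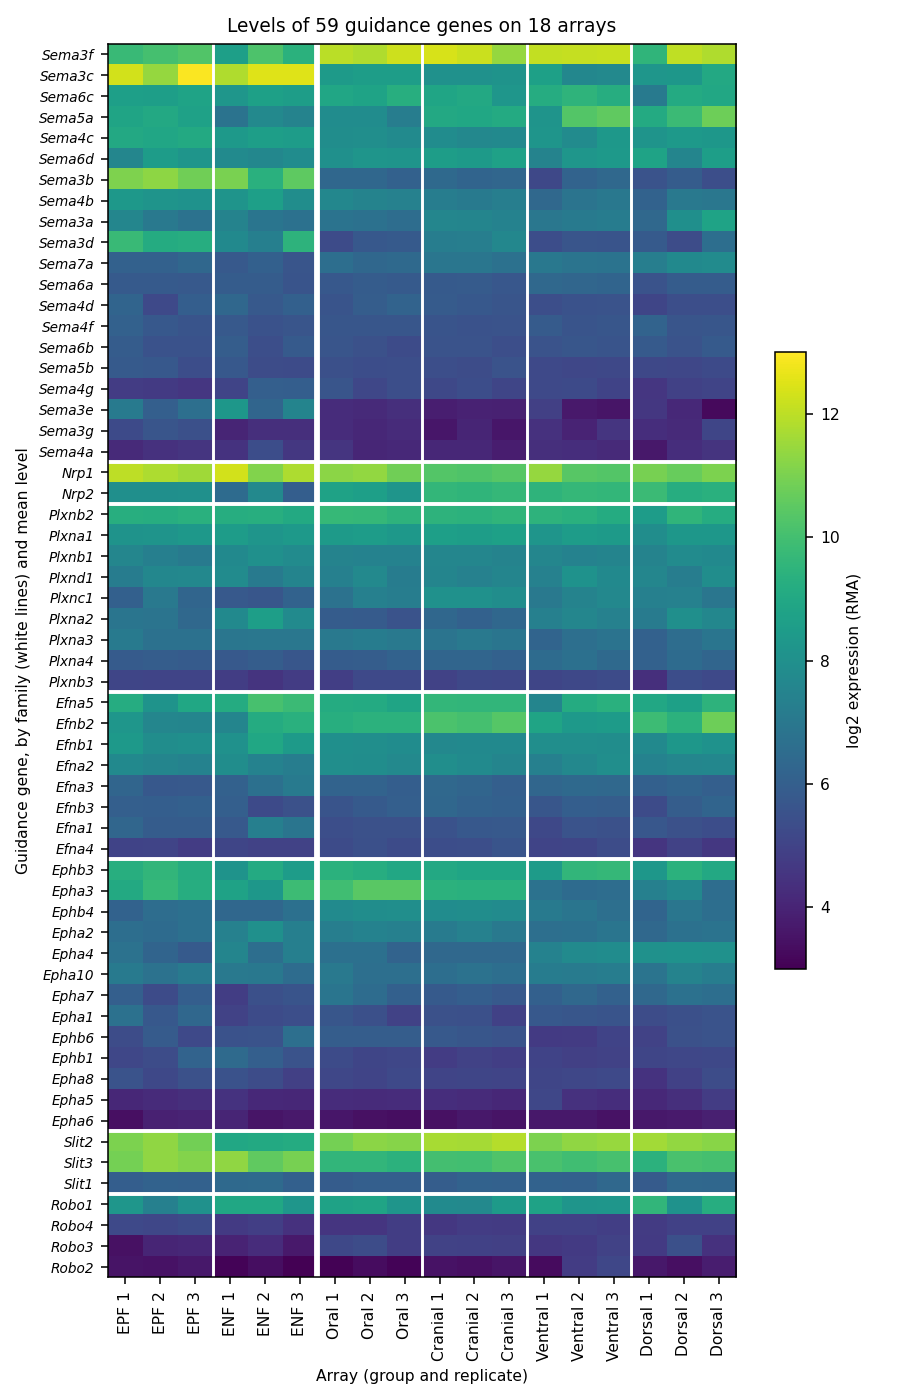
Log2 expression of the 59 guidance genes (rows, by family and then mean level, an order for layout only) on the 18 arrays (columns), with colour from low (dark) to high (yellow) on a linear colour scale of log2 values. Sema3b, Sema3c and Sema3e are brighter in the 6 EPF and ENF columns than in the 12 site columns, and Epha3 is darker in the Ventral and Dorsal columns than in the other 4 groups.

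Median levels of the 59 members were 6.58 in EPF, 6.86 in ENF, 6.51 in Oral, 6.67 in Cranial, 6.60 in Ventral and 6.59 in Dorsal cells. Over all genes the medians were 6.37, 6.37, 6.42, 6.42, 6.25 and 6.24 in the same groups. Between 2 and 5 members were near background in any one group, and Epha6 was near background in all 6. Robo2, a Slit receptor, was near background in every group but Ventral, where it averaged 4.40 ± 0.97 (SD, n = 3).

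Among the 4 site groups, 18 of the 59 members (30.5%) differed by the moderated F-test, against 21.1% of all genes. They were 5 Eph receptors, 2 ephrins, Nrp2, 3 plexins, 6 semaphorins and Slit2, with no Robo called by limma and 1 Robo at an unadjusted p under 0.05 (34.9% of all genes). In order of p these were Epha3, Epha4, Plxna2, Ephb4, Ephb6, Sema7a, Sema3d, Nrp2, Efnb2, Epha2, Efna4, Sema6a, Plxnc1, Sema4d, Sema5a, Slit2, Plxna4 and Sema4c. The first 11 stayed called when any 1 of the 12 site arrays was left out. Without Dorsal 1, all 18 were called again and the count was 24. Epha3 and Epha4 had the lowest F-test p-values and Slit2 the larger of the called differences between EPF and ENF cells, so the promoters of these 3 genes are shown.

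RefSeq's GRCm38.p6 sequences of the 250 bases before each start site are given here in the direction of transcription, with matches to the GC box letters GGGCGG or the TATA box letters TATAAA, on either strand, in capitals. They lie at chr16:63864176-63864425 on the minus strand for Epha3, chr1:77515089-77515338 on the minus strand for Epha4, and chr5:47982905-47983154 on the plus strand for Slit2.
Epha3: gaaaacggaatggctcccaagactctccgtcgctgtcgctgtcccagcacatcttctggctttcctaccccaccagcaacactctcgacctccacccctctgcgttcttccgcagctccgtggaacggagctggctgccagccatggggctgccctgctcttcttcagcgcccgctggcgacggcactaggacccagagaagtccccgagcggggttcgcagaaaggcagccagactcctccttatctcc
Epha4: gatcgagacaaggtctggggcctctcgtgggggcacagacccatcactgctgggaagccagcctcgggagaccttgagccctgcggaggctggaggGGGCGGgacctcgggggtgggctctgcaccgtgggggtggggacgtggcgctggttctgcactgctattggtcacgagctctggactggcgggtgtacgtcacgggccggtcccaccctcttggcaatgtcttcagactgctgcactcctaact
Slit2: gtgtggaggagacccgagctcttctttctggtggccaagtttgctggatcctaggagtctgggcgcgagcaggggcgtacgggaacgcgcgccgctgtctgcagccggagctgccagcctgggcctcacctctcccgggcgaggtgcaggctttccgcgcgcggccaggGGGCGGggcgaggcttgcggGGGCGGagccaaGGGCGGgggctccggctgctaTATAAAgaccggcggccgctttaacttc
The Epha3 window held neither string, the Epha4 window held 1 GC box string, and the Slit2 window held 3 of them and 1 TATA box string. Of all 32851 promoters of this length, 32.7% held the GC box letters and 12.4% the TATA box letters. Of the 68 promoters found for 52 of the 59 members, 72.1% held the GC box letters and 2.9% the TATA box letters. A match is a description of letters and not a binding site.

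Epha3, a receptor for ephrin-A ligands, had the largest called difference of any member, between the head and trunk groups. Its levels were 9.94, 10.42 and 10.42 in Oral cells and 9.44, 9.33 and 9.35 in Cranial cells, against 6.75, 6.48 and 6.56 in Ventral cells and 7.36, 7.68 and 6.58 in Dorsal cells. Every Oral and Cranial array lay above every Ventral and Dorsal array. By limma it was higher in Oral than Ventral cells by 3.67 ± 0.24 (SE, adjusted p = 5.045e-06), a 12.7-fold difference. The other differences were 3.06 for Oral minus Dorsal, 2.77 for Cranial minus Ventral and 2.17 for Cranial minus Dorsal, all called. EPF cells, which come from the back as Dorsal cells do, had 9.06, 9.71 and 9.23, and ENF cells had 8.75, 8.30 and 9.86. These 6 values overlapped each other and lay above all 3 Dorsal values, in another array set of another labelled age.

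Epha4, which binds both ephrin classes, went the other way. Levels of the probe set used were 6.68, 6.70 and 6.17 in Oral cells and 6.38, 6.36 and 6.39 in Cranial cells, against 7.44, 7.78 and 7.85 in Ventral cells and 8.07, 8.09 and 8.07 in Dorsal cells. No head array overlapped a trunk array. The differences were -1.17 for Oral minus Ventral, -1.56 for Oral minus Dorsal, -1.31 for Cranial minus Ventral and -1.70 ± 0.15 for Cranial minus Dorsal (SE, limma adjusted p = 7.73e-05). EPF arrays had 6.79, 6.22 and 5.83 and ENF arrays 7.57, 6.61 and 7.31, an overlapping pair of groups. Epha4 also has the clearest disagreement between probe sets, described further on.

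Ephb4, a receptor for ephrin-B2, was higher in both head groups. It had 7.79, 7.91 and 7.95 in Oral cells and 7.85, 7.90 and 7.81 in Cranial cells, against 7.14, 6.88 and 6.67 in Ventral cells and 6.21, 6.94 and 6.62 in Dorsal cells. Head and trunk arrays did not overlap, while Oral and Cranial arrays did. The limma differences were 0.98 for Oral minus Ventral, 1.29 ± 0.17 for Oral minus Dorsal (SE, adjusted p = 0.00069), 0.95 for Cranial minus Ventral and 1.26 for Cranial minus Dorsal. EPF cells had 6.16, 6.57 and 6.70 and ENF cells 6.35, 6.36 and 6.69, values that overlapped.

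Ephb6, whose kinase domain lacks catalytic activity, had 5.96, 5.96 and 5.97 in Oral cells and 5.77, 5.66 and 5.55 in Cranial cells, against 4.68, 4.74 and 5.0 in Ventral cells and 4.99, 5.48 and 5.55 in Dorsal cells. It was higher by 1.16 in Oral than Ventral, 0.62 in Oral than Dorsal and 0.85 in Cranial than Ventral cells, and the difference of 0.32 for Cranial minus Dorsal was not called. Without any 1 of the Oral arrays the Oral minus Dorsal call was lost, at adjusted p up to 0.0576. EPF arrays had 5.34, 5.89 and 5.21, overlapping the ENF arrays at 5.51, 5.56 and 6.65.

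Epha2, a receptor best known from epithelia and tumours, was higher in the head groups by smaller steps. It had 7.29, 7.43 and 7.37 in Oral cells and 7.15, 7.38 and 7.04 in Cranial cells, against 6.67, 6.70 and 6.89 in Ventral cells and 6.39, 6.73 and 6.79 in Dorsal cells. All 6 head values were above all 6 trunk values. Its differences were 0.61 for Oral minus Ventral, 0.73 for Oral minus Dorsal, 0.44 for Cranial minus Ventral and 0.55 for Cranial minus Dorsal, all called. The Cranial minus Ventral call was lost without any 1 of its 6 arrays, at adjusted p up to 0.154, the Cranial minus Dorsal call without Cranial 1 or Cranial 2, up to 0.0721, and the Oral minus Ventral call without Oral 2, at 0.0531. EPF arrays had 6.61, 6.5 and 6.70, below the ENF arrays at 7.41, 8.04 and 7.31, a difference of -0.98 that was not called (adjusted p = 0.151).

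A pair of further Eph receptors passed in single comparisons but not in the F-test. Epha7 was lower in Cranial than Dorsal cells by -0.70, and Epha10 was lower in Cranial than Ventral cells by -0.54 and in Cranial than Dorsal cells by -0.53. The Epha7 call and the Cranial minus Dorsal call of Epha10 were each lost without any of the 5 arrays other than Dorsal 1, at adjusted p up to 0.0937 and 0.135. The Cranial minus Ventral call of Epha10 was lost without any of its 6 arrays, up to 0.130. Of the remaining 6 Eph receptors, Epha1, Epha5, Epha6, Epha8, Ephb1 and Ephb3, none was called in any comparison. Ephb3 averaged 9.35 ± 0.20 in EPF, 8.58 ± 0.49 in ENF, 9.20 ± 0.21 in Oral, 8.93 ± 0.09 in Cranial, 9.24 ± 0.65 in Ventral and 8.91 ± 0.56 in Dorsal cells (SD, n = 3 each).

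**Figure D2:**
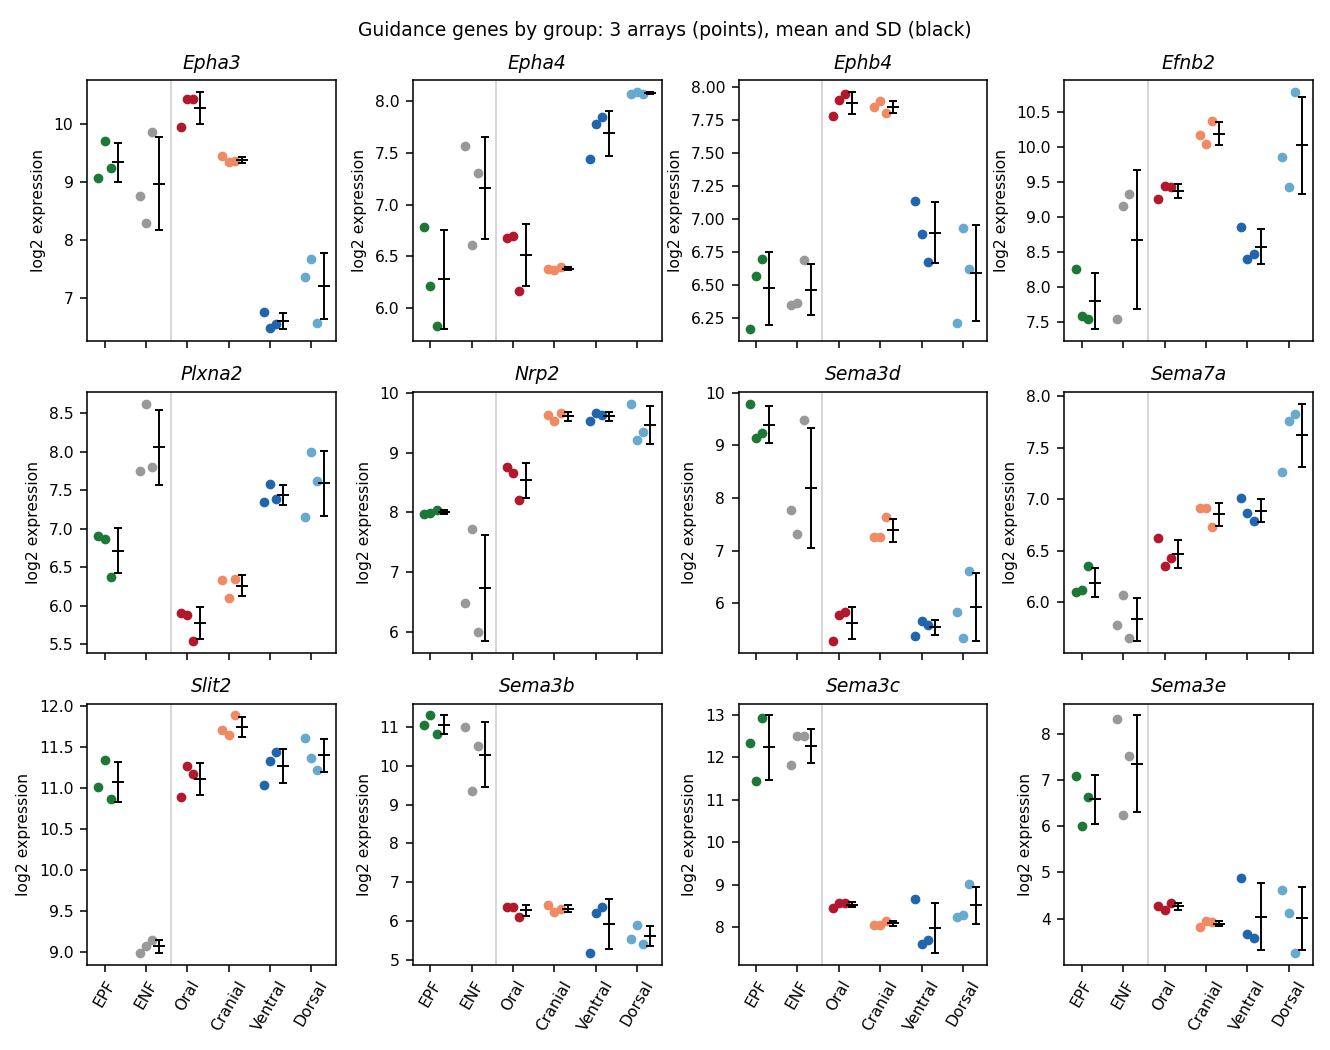
Log2 expression of 12 guidance genes by group (x axis), with 3 arrays as points and the mean and SD in black, on an axis that differs between panels and does not start at 0. A grey line stands between the 2 array sets, and Oral and Cranial points of Epha3 and Ephb4 lie above the Ventral and Dorsal points, while those of Epha4 and Plxna2 lie below.

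Among ephrins, Efnb2, the transmembrane ligand of Ephb4 and a marker of arteries in vessels, was high in Cranial and Dorsal cells. Its levels were 9.25, 9.44 and 9.42 in Oral cells and 10.17, 10.03 and 10.36 in Cranial cells, against 8.86, 8.40 and 8.47 in Ventral cells and 9.85, 9.43 and 10.78 in Dorsal cells. Cranial arrays overlapped Dorsal arrays but no others. The called difference was 1.61 ± 0.28 for Cranial minus Ventral (SE, limma adjusted p = 0.0031), and the -1.44 for Ventral minus Dorsal, whose arrays did not overlap, was not called (adjusted p = 0.2095). EPF cells had 8.26, 7.59 and 7.55, and ENF cells had 7.54, 9.16 and 9.33.

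Efna4, a lipid-anchored ligand, had 5.30, 5.43 and 5.29 in Oral cells and 5.38, 5.39 and 5.59 in Cranial cells, against 5.04, 5.09 and 5.33 in Ventral cells and 4.54, 4.98 and 4.63 in Dorsal cells. It was lowest in Dorsal cells, by 0.62 for Oral minus Dorsal and 0.73 ± 0.14 for Cranial minus Dorsal (SE, limma adjusted p = 0.00468), and no array left out ended either call. EPF arrays had 5.01, 5.05 and 4.77 and ENF arrays 5.09, 4.98 and 4.97. Efna1, Efna2, Efna3, Efna5, Efnb1 and Efnb3 were called in no comparison. Efna5, a ligand of Epha3 and Epha4, averaged 8.75 ± 0.56 in EPF, 9.68 ± 0.48 in ENF, 9.03 ± 0.17 in Oral, 9.59 ± 0.02 in Cranial, 8.69 ± 1.00 in Ventral and 9.03 ± 0.40 in Dorsal cells (SD, n = 3 each).

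Nrp2, a co-receptor for class 3 semaphorins and for vascular growth factors, was lowest of the site groups in Oral cells. It had 8.75, 8.66 and 8.20 in Oral cells and 9.63, 9.53 and 9.67 in Cranial cells, against 9.52, 9.66 and 9.63 in Ventral cells and 9.81, 9.22 and 9.35 in Dorsal cells. All 3 Oral values lay below the other 9, which overlapped each other. Nrp2 was lower by -1.07 in Oral than Cranial, -1.07 in Oral than Ventral and -0.92 in Oral than Dorsal cells, all called, and all 3 other probe sets had the same sign. Without Cranial 1, 2 or 3 the Oral minus Cranial call was lost, at adjusted p up to 0.0747. EPF arrays had 7.98, 7.98 and 8.04 and ENF arrays 6.5, 7.72 and 6.0, with EPF above ENF on every array. Nrp1, the other co-receptor, averaged 11.79 ± 0.20 in EPF, 11.73 ± 0.61 in ENF, 11.16 ± 0.30 in Oral, 10.31 ± 0.08 in Cranial, 10.71 ± 0.62 in Ventral and 10.89 ± 0.19 in Dorsal cells and was called in no comparison. These are levels of 1418084_at, whose Cranial arrays at 10.23 to 10.39 lay below the Dorsal arrays at 10.67 to 11.02. Other Nrp1 probe sets differed in direction. Cranial lay above Dorsal arrays on 1448943_at, at 10.31 to 10.76 against 9.71 to 9.83. The same held on 1448944_at, at 8.22 to 8.36 against 7.37 to 8.07, and on 1457198_at they overlapped.

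Plxna2, a plexin that binds class 6 semaphorins directly, was lower in both head groups. Its levels were 5.91, 5.88 and 5.54 in Oral cells and 6.33, 6.10 and 6.35 in Cranial cells, against 7.34, 7.58 and 7.38 in Ventral cells and 7.15, 7.99 and 7.61 in Dorsal cells. Head and trunk arrays did not overlap. By limma the differences were -1.66 for Oral minus Ventral, -1.81 ± 0.19 for Oral minus Dorsal (SE, adjusted p = 0.00017), -1.17 for Cranial minus Ventral and -1.33 for Cranial minus Dorsal. EPF arrays had 6.90, 6.86 and 6.37, below the ENF arrays at 7.74, 8.62 and 7.80.

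Plxnc1, the plexin that binds Sema7a, had 6.75, 7.34 and 7.24 in Oral cells and 8.05, 8.05 and 7.89 in Cranial cells, against 7.06, 7.46 and 7.68 in Ventral cells and 7.35, 7.38 and 6.92 in Dorsal cells. Cranial values were above all others, and the difference of 0.78 for Cranial minus Dorsal was the one called. EPF arrays had 6.08, 7.03 and 6.24 and ENF arrays 5.78, 5.67 and 6.15. The call was lost without Cranial 1, 2 or 3 or Dorsal 3, at adjusted p up to 0.0759, and the F-test call without Cranial 1, 2 or 3 or Ventral 2, up to 0.109.

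Plxna4, a receptor component for Sema3a and Sema6a, was lower in Oral than Ventral cells by -0.54, and Plxna1 was higher in Cranial than Dorsal cells by 0.46. The Plxna4 call was lost without Oral 1, Oral 2 or Ventral 2, at adjusted p up to 0.065, its F-test call without any site array other than Dorsal 1 and Dorsal 2, up to 0.138, and the Plxna1 call without Cranial 1, 2 or 3, up to 0.109. Plxna3, Plxnb1, Plxnb2, Plxnb3 and Plxnd1 were called nowhere. Plxnb2 averaged 9.30 ± 0.07 in EPF, 9.19 ± 0.10 in ENF, 9.61 ± 0.12 in Oral, 9.47 ± 0.06 in Cranial, 9.31 ± 0.17 in Ventral and 9.09 ± 0.52 in Dorsal cells (SD, n = 3 each), a narrow range throughout.

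Sema3d, a secreted class 3 semaphorin, stood out in Cranial cells among the sites. It had 5.28, 5.77 and 5.83 in Oral cells and 7.25, 7.26 and 7.63 in Cranial cells, against 5.38, 5.66 and 5.59 in Ventral cells and 5.83, 5.34 and 6.62 in Dorsal cells. No other site array reached the Cranial range. It was lower in Oral than Cranial cells by -1.76 ± 0.28 (SE, limma adjusted p = 0.00973) and higher by 1.84 in Cranial than Ventral and by 1.45 in Cranial than Dorsal cells. Without Cranial 3 or Oral 1 the Oral minus Cranial call was lost, at adjusted p up to 0.0654. Its other probe set, with a mean of 4.99, had the opposite sign in all 3 of these comparisons and was called in none. EPF arrays had 9.79, 9.14 and 9.23 and ENF arrays 7.76, 7.32 and 9.48, which overlap.

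Sema7a, a lipid-anchored semaphorin, was highest in Dorsal cells. Its levels were 6.62, 6.35 and 6.43 in Oral cells and 6.92, 6.92 and 6.73 in Cranial cells, against 7.02, 6.87 and 6.79 in Ventral cells and 7.27, 7.76 and 7.83 in Dorsal cells. Dorsal arrays did not overlap any other site. The called differences were -1.15 ± 0.15 for Oral minus Dorsal (SE, limma adjusted p = 0.000612) and -0.76 for Cranial minus Dorsal. EPF arrays had 6.10, 6.12 and 6.35, and ENF arrays had 5.78, 6.07 and 5.66.

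Sema6a, a transmembrane ligand of Plxna2 and Plxna4, had 5.76, 5.89 and 5.85 in Oral cells and 5.83, 5.87 and 5.71 in Cranial cells, against 6.39, 6.30 and 6.22 in Ventral cells and 5.54, 5.92 and 5.92 in Dorsal cells. Ventral arrays were above all other site arrays, and the called differences were -0.47 for Oral minus Ventral and -0.50 for Cranial minus Ventral. The F-test call was lost without Cranial 1 or any Ventral array, at adjusted p up to 0.089. The Oral minus Ventral call was lost without Oral 1, 2 or 3, Ventral 1 or Ventral 2, up to 0.0843, and the Cranial minus Ventral call without Cranial 1, Cranial 3 or Ventral 1, up to 0.0732. EPF arrays had 5.82, 5.85 and 5.78 and ENF arrays 5.90, 5.91 and 5.61, which overlap.

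Sema4d, a transmembrane ligand of Plxnb1, had 5.61, 5.94 and 6.17 in Oral cells and 5.86, 5.76 and 5.65 in Cranial cells, against 5.39, 5.51 and 5.57 in Ventral cells and 5.10, 5.41 and 5.40 in Dorsal cells. Head arrays were above trunk arrays throughout, and the difference of 0.60 for Oral minus Dorsal was called. It was lost without Oral 2 or Oral 3, at adjusted p up to 0.0735, and the F-test call without any site array other than Dorsal 1, Dorsal 3 and Oral 1, up to 0.111. EPF arrays had 6.22, 5.20 and 5.97 and ENF arrays 6.34, 5.81 and 6.07, which overlap.

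Sema5a, a transmembrane semaphorin with thrombospondin repeats, had 7.87, 7.85 and 7.26 in Oral cells and 9.03, 8.95 and 9.13 in Cranial cells, against 8.17, 10.31 and 10.56 in Ventral cells and 9.11, 9.83 and 10.78 in Dorsal cells. It was lower by -2.25 in Oral than Dorsal and by -2.02 in Oral than Ventral cells. Every Oral array lay below every other site array, and Ventral 1 was far below Ventral 2 and Ventral 3. The Oral minus Dorsal call was lost without Dorsal 3, Oral 2 or Oral 3, at adjusted p up to 0.0775. The Oral minus Ventral call was lost without any of the 5 arrays other than Ventral 1, up to 0.132, and the F-test call without any site array other than Dorsal 1, Dorsal 3 and Ventral 1, up to 0.155.

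Smaller steps were called in 4 other semaphorins. Sema4b was higher in Oral than Ventral cells by 0.75 and in Oral than Dorsal cells by 0.76, and Sema4g was higher in Oral than Dorsal cells by 0.54. Sema4c, a ligand of Plxnb2, was lower in Cranial than Dorsal cells by -0.54, and Sema3g, near background in Cranial cells, was lower there than in Dorsal cells by -0.79. All 5 calls were lost without at least 3 of their 6 arrays, at adjusted p up to 0.153 for Sema4b, 0.158 for Sema4g, 0.0754 for Sema4c and 0.123 for Sema3g. Sema4b lost its call against Dorsal without any Oral array and against Ventral without any of the 6, Sema4g without Dorsal 1, Dorsal 2, Oral 1 or Oral 3, Sema4c without Cranial 2, Cranial 3 or Dorsal 2, and Sema3g without Cranial 1, Cranial 3 or Dorsal 3. The F-test call of Sema4c was lost without any site array other than Dorsal 1 and Ventral 2, up to 0.123. The other 11 semaphorins were called in no site comparison. Sema3f, a ligand of Nrp2, had 9.79, 10.04 and 10.29 in EPF cells, 8.64, 10.22 and 9.38 in ENF cells, 11.97, 11.80 and 12.23 in Oral cells, 12.39, 12.20 and 11.43 in Cranial cells, 12.07, 12.11 and 12.16 in Ventral cells and 9.56, 12.05 and 11.80 in Dorsal cells. Dorsal 1 was the one site array below 11.43. These are levels of 1438947_x_at, and the gene's other probe sets, given further on, were lower.

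Slit2, a secreted ligand of Robo1 and Robo2, had 10.89, 11.26 and 11.17 in Oral cells and 11.71, 11.65 and 11.89 in Cranial cells, against 11.04, 11.33 and 11.44 in Ventral cells and 11.62, 11.37 and 11.22 in Dorsal cells. Cranial arrays lay above the rest, no pairwise site difference of this probe set was called, and the F-test call (adjusted p = 0.0464) was lost without any site array other than Dorsal 1, Dorsal 3 and Ventral 1, up to 0.166. Its other probe sets, 1458140_at and 1451430_at, were called as higher in Cranial than Dorsal cells, by 1.08 and 0.83, and than Ventral cells, by 1.49 and 0.53. Slit3 averaged 11.12 ± 0.21 in EPF, 10.95 ± 0.41 in ENF, 9.52 ± 0.09 in Oral, 10.08 ± 0.15 in Cranial, 10.04 ± 0.10 in Ventral and 9.86 ± 0.39 in Dorsal cells. Slit1 stayed between 5.99 and 6.31 in the 6 group means, and neither was called. Robo1 averaged 7.89 ± 0.46 in EPF, 8.73 ± 0.41 in ENF, 8.61 ± 0.34 in Oral, 7.97 ± 0.40 in Cranial, 8.41 ± 0.29 in Ventral and 8.96 ± 0.79 in Dorsal cells (SD, n = 3 each). Robo2 was the only Robo called in any comparison, lower by -1.25 in Oral than Ventral cells, yet its Oral arrays at 3.06, 3.32 and 3.08 overlapped the Ventral arrays at 3.30, 4.76 and 5.14, and the call was lost without any of 5 arrays, all but Ventral 1, at adjusted p up to 0.14.

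Counted by comparison, 14 members were called in Cranial minus Dorsal (7 higher, 7 lower, 23.7% of 59) against 18.7% of all genes. In Oral minus Dorsal 13 were called (8 higher, 5 lower, 22%) against 16.8%, in Oral minus Ventral 12 (5 higher, 7 lower, 20.3%) against 14.6%, and in Cranial minus Ventral 10 (6 higher, 4 lower, 16.9%) against 17.9%. Over all genes, 11.2% were higher and 7.45% lower in Cranial minus Dorsal, 10.5% and 6.3% in Oral minus Dorsal, 10.3% and 4.31% in Oral minus Ventral, and 11.7% and 6.2% in Cranial minus Ventral. The members' shares lie near those of all genes. After quantile normalization of the 12 arrays the splits were 6 higher and 8 lower in Oral minus Dorsal, 3 and 10 in Oral minus Ventral, and 6 and 6 in Cranial minus Ventral. Calls that stood without each array in turn numbered 7 of 14, 8 of 13, 6 of 12 and 7 of 10 in the same order, and those of Epha3, Epha4, Ephb4 and Plxna2 were among them each time. Without Dorsal 1 the counts were 17 in Cranial minus Dorsal, with all 14 kept, and 20 in Oral minus Dorsal, with 12 of 13 kept and Sema4g lost. The 4 comparisons share their arrays, so a gene called in several of them is not several independent results.

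Within the head, Oral minus Cranial called 2 members, Sema3d and Nrp2, both lower in Oral cells, against 1.14% of all genes called and 0.731% called as lower. Arrays did not overlap for 29 members, 49.2% against 25.9% of all genes. Array means of 4 marker lists did not overlap either. Fibroblast markers averaged 11.42 to 11.63 on Oral and 11.999 to 12.27 on Cranial arrays, and mural markers 7.03 to 7.20 on Oral and 7.27 to 7.30 on Cranial arrays. Keratinocyte markers averaged 4.383 to 4.518 on Oral and 4.525 to 4.589 on Cranial arrays, and skeletal muscle markers 4.99 to 5.25 on Oral and 4.84 to 4.96 on Cranial arrays. The mural genes Abcc9 and Kcnj8 had 4.18 to 4.49 and 5.03 to 5.21 in Oral cells, against 6.22 to 6.37 and 6.58 to 6.71 in Cranial cells. Not all mural genes moved this way. Notch3 had 7.70 to 7.87 in Oral and 7.42 to 7.60 in Cranial cells, and Cspg4 had 8.69 to 9.38 and 7.89 to 8.19. The part of these markers in the Sema3d and Nrp2 differences was not tested. Within the trunk, Ventral minus Dorsal called 0 members by limma against 0.0275% of all genes, with 7 members at an unadjusted p under 0.05 (8.55% of all genes) and 11 without overlap (10.1% of all genes). Without Dorsal 1, 3 members were called, and without Dorsal 2 or without Ventral 1, 1 each.

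**Figure D3:**
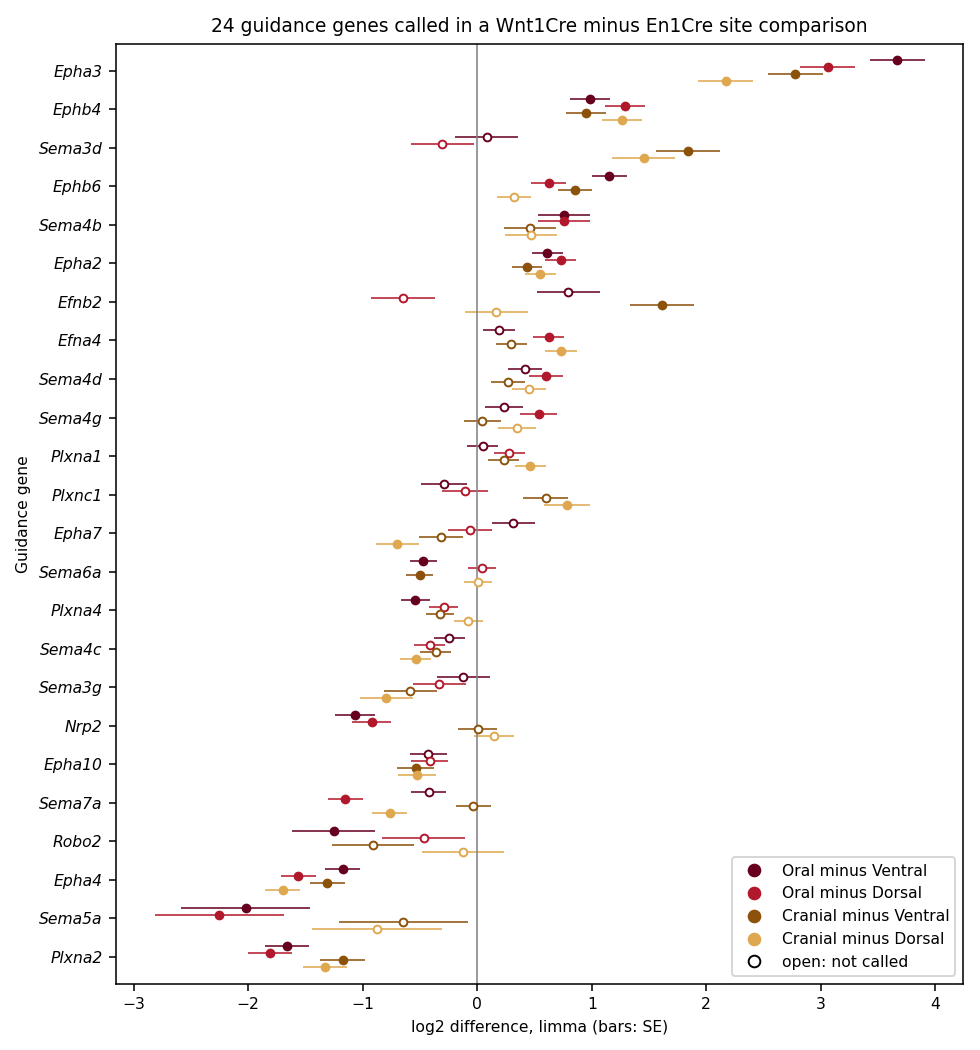
Log2 differences with SE (x axis) of the 24 guidance genes called in at least 1 comparison of a Wnt1Cre site (Oral or Cranial) minus an En1Cre site (Ventral or Dorsal), with filled points for called differences and open points for the rest. Epha3, Ephb4 and Epha2 have all 4 points filled to the right of 0, and Epha4 and Plxna2 have all 4 filled to the left.

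Over these comparisons of a head with a trunk site, 24 members were called at least once, against 29.7% of all genes, and 5 were called in all 4, against 7.36%. Epha3, Ephb4 and Epha2 were higher in the head groups each time, and Epha4 and Plxna2 lower. Adipocyte and endothelial marker lists moved with all of these comparisons, and their array means did not overlap between head and trunk. In the adipocyte list, Fabp4, Pparg and Retn were higher on every trunk array than on any head array, and Cidec and Lep overlapped. Adipoq had 3.51 to 3.95 on the head arrays. It had 3.53 on Ventral 1, 4.07 on Dorsal 2 and 6.39 to 8.05 on the other trunk arrays. The endothelial list averaged 4.72 to 4.81 on Oral and Cranial arrays, against 4.94 to 5.08 on Ventral and Dorsal arrays. Its member Flt1 had 5.25 to 6.31 on the head arrays, against 7.22 to 8.80 on the trunk arrays, and Kdr 6.495 to 6.69, against 6.97 to 7.42. Not all members moved this way: Pecam1 and Cdh5 overlapped, and Prox1 was higher on the head arrays, at 3.78 to 3.97 against 3.29 to 3.77. The part of these lists in the results was not tested. Cell surface and secreted proteins were not measured, and in a bulk sample fewer cells of a type and less RNA per cell cannot be told apart.

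Other probe sets of the same gene agreed for some of these members and not for others. All 3 other probe sets of Epha3 were higher in the head groups in all 4 comparisons, with 0 to 2 of the 3 called, although 2 of them averaged only 3.50 and 3.65 over the 18 arrays. For Epha4, the probe set 1439757_s_at gave -2.15 for Cranial minus Dorsal, beside -1.70 for the probe set used, and 1456863_at gave -0.97, while 1429021_at gave 1.38 with an adjusted p of 0.00651. That probe set was higher in the head groups in all 4 comparisons, by 0.98 to 2.09, and was called in each. For Plxna2, 1455037_at was higher by 0.89 in Cranial than Dorsal and by 0.60 in Cranial than Ventral cells, opposite to the probe set used. Both of these differences were called, and in the Oral comparisons 1455037_at gave 0.22 and -0.07. The 3 other probe sets of Plxna2 averaged 6.73 to 6.86 over the 18 arrays, beside 6.97 for the one used. Epha7 and Plxnc1 each had 1 other probe set called in the opposite direction for Cranial minus Dorsal, with means over the 18 arrays of 4.63 and 3.73. Ephb4, Ephb6 and Epha2 have a single probe set. Averaging all probe sets of a gene left Epha3 at 0.86 to 1.57, Epha4 at -0.63 to -0.22 and Plxna2 at -0.92 to -0.27, with the Cranial minus Ventral calls of Epha4 and Plxna2 and the Oral minus Ventral call of Epha4 lost, at adjusted p = 0.152, 0.142 and 0.215. In all, averaging ended 16 of the 51 pairwise site calls and 6 of the 18 F-test calls. Beside those 3, the pairwise calls lost were those of Sema3d for Oral minus Cranial (adjusted p = 0.193) and Cranial minus Dorsal (0.107), Sema7a for Cranial minus Dorsal (0.0692), Sema5a for Oral minus Dorsal (0.0515) and Oral minus Ventral (0.0951), Sema4b for the same comparisons (0.139 and 0.0925), Sema6a for Oral minus Ventral (0.321) and Cranial minus Ventral (0.406), Sema4d for Oral minus Dorsal (0.199), and Epha7 (0.635), Plxna1 (0.326) and Plxnc1 (0.923) for Cranial minus Dorsal. By the F-test, Plxna4 (0.0614), Sema3d (0.0686), Sema5a (0.0891), Plxnc1 (0.407), Sema4d (0.432) and Sema6a (0.438) were lost. Which transcript forms the probe sets read is not annotated in the files.

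**Figure D4:**
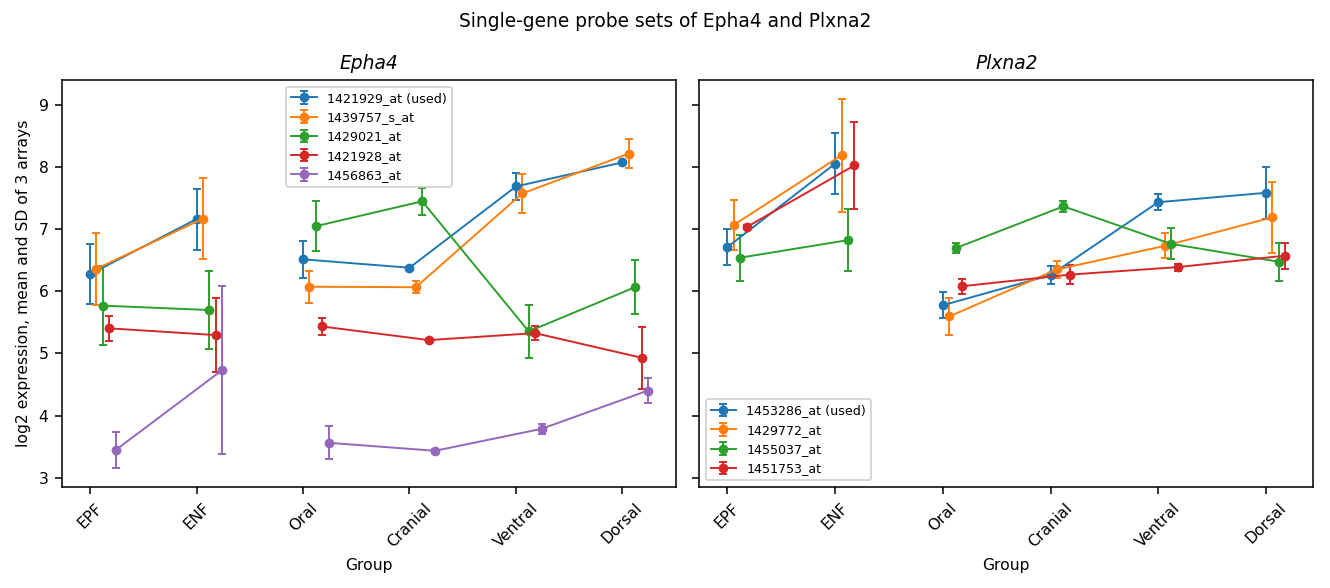
Mean log2 expression and SD of 3 arrays (y axis) by group (x axis) for each single-gene probe set of Epha4 and Plxna2, with lines joining groups of one array set and no line between the sets. For Epha4, 1429021_at runs from high in Oral and Cranial to low in Ventral cells, opposite to 1421929_at and 1439757_s_at.

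Known ligand and receptor partners were set side by side for 27 pairs, 26 of them measured. By the F-test among sites, both partners differed in 4 pairs, the ligand alone in 6, the receptor alone in 7 and neither in 9. Without Cranial 1 these counts were 1, 1, 7 and 17, and Efnb2 with Ephb4 was the pair in which both still passed. The 4 pairs were Efnb2 with Ephb4, Sema7a with Plxnc1, and Sema6a with Plxna2 and with Plxna4. Efnb2 was highest in Cranial and lowest in Ventral cells, whereas Ephb4 was highest in Oral and lowest in Dorsal cells. Sema7a was highest in Dorsal cells and its receptor Plxnc1 in Cranial cells, with both lowest in Oral cells. Sema6a and Plxna4 were both highest in Ventral cells, and Plxna2 was highest in Dorsal cells, although the 7.44 ± 0.13 in Ventral and 7.59 ± 0.42 in Dorsal cells overlapped.

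In 7 pairs the receptor passed and its listed ligand did not. Epha3, Epha4 and Epha2 differed among sites, and Efna5, Efnb3 and Efna1, set beside them as ligands, did not pass, at adjusted p = 0.35, 0.476 and 0.362. Nrp2 differed and its ligands Sema3c and Sema3f did not pass (0.3 and 0.426), and Plxna4 differed beside Sema3a (0.315). Where the ligand alone differed, the receptors were Plxnb1 for Sema4d, Plxnb2 for Sema4c, Plxnb3 and Plxna1 for Sema5a, and Robo1 and Robo2 for Slit2, at adjusted p between 0.105 and 0.87. A p above the threshold does not show that a partner was equal across sites. In 9 pairs neither passed: Sema3a with Nrp1, Sema3c, Sema3e and Sema4a with Plxnd1, Sema6d with Plxna1, Slit3 with Robo1 and Robo4, Efna2 with Epha7, and Efnb1 with Ephb3.

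Between EPF and ENF cells, 2 of 59 members (3.39%) were called, both higher in EPF cells, against 0.308% of all genes called and 0.275% called as higher. Slit2 had 11.01, 11.34 and 10.86 in EPF cells, against 8.99, 9.06 and 9.15 in ENF cells. The groups did not overlap, and ENF cells were the one group of the study in which Slit2 was below 10.86 on every array. Slit2 was higher in EPF cells by 2.00 ± 0.17 (SE, limma adjusted p = 0.00591), a 4.01-fold difference. Both other probe sets had the same sign, at 0.84 and 1.24, and neither was called. The mean of the 3 probe sets differed by 1.36 and was not called (adjusted p = 0.102). Without EPF 2 the difference was 1.87 (adjusted p = 0.0519), and without EPF 2 and ENF 1, the arrays of low Xist, it was 1.83 (adjusted p = 0.0968).

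Sema3g, a secreted semaphorin known from arterial endothelium, had 5.26, 5.63 and 5.46 in EPF cells, against 4.04, 4.33 and 4.35 in ENF cells. Groups did not overlap, and the ENF values lay close to background. It was higher in EPF cells by 1.21 ± 0.17 (SE, limma adjusted p = 0.046). The call was lost without any 1 of the 6 arrays, at adjusted p = 0.053 to 0.243 and differences of 1.11 to 1.30. Endothelial markers averaged 4.81 to 5.15 on EPF and 4.94 to 5.26 on ENF arrays, which overlap, with Pecam1 at 3.85 to 3.98 on EPF and 3.89 to 4.25 on ENF arrays. Of the same list, Esam had 5.89, 6.15 and 6.45 in EPF cells, against 5.05, 5.53 and 5.64 in ENF cells, with no overlap. Prox1, near background, went the other way without overlap, at 3.51 to 3.73 on EPF and 3.78 to 4.09 on ENF arrays. The mean of the list was 4.975 in EPF and 5.0621 in ENF cells.

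Markers of other cells moved with this comparison. Rgs5, a pericyte marker, had 11.27 to 12.24 on EPF arrays and 7.94 to 9.87 on ENF arrays, and the mean of the 12 mural markers was higher on each EPF array than on any ENF array. The keratinocyte factor Trp63 had 4.42 to 5.12 in EPF cells, against 8.58 to 9.78 in ENF cells. Array means of the keratinocyte list overlapped, however, at 4.68 to 7.60 on EPF and 7.43 to 9.51 on ENF arrays. On EPF 1, Krt5 (9.72), Krt15 (10.68), Perp (11.78) and Dsp (11.17) were above their ENF 1 levels of 9.64, 9.47, 9.92 and 9.07. Skeletal muscle markers averaged 4.91 to 5.25 on EPF arrays, against 5.93 to 6.85 on ENF arrays. Melanocyte markers averaged 5.84 to 6.20 on EPF arrays, against 5.52 to 5.78 on ENF arrays. Of that list, Mlana had 8.05 to 9.88 on EPF and 5.87 to 6.76 on ENF arrays. Mitf had 9.605 to 10.09 and 9.17 to 9.47, while Tyr, Tyrp1, Dct, Pmel, Kit and Slc45a2 overlapped. The part of these markers in the Slit2 and Sema3g differences was not tested.

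Large differences that were not called were those of Sema5a, Plxna2, Nrp2 and Sema3d. Sema5a had 8.83, 9.02 and 8.74 in EPF cells, against 6.80, 7.72 and 7.46 in ENF cells, a difference of 1.53 (limma adjusted p = 0.0653). Plxna2 differed by -1.34 (0.122), Nrp2 by 1.26 (0.303, and 0.0333 without ENF 2) and Sema3d by 1.20 (0.457). Sema5a, Plxna2 and Nrp2 did not overlap between the groups and Sema3d did. In all, arrays of 16 members did not overlap, 27.1% against 17% of all genes. Lipid-anchored and transmembrane ephrins had a median difference of -0.52 over 8 genes, against 2e-04 over all genes, with 0 called by limma and 2 at an unadjusted p under 0.05 (10.8% of all genes).

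**Figure D5:**
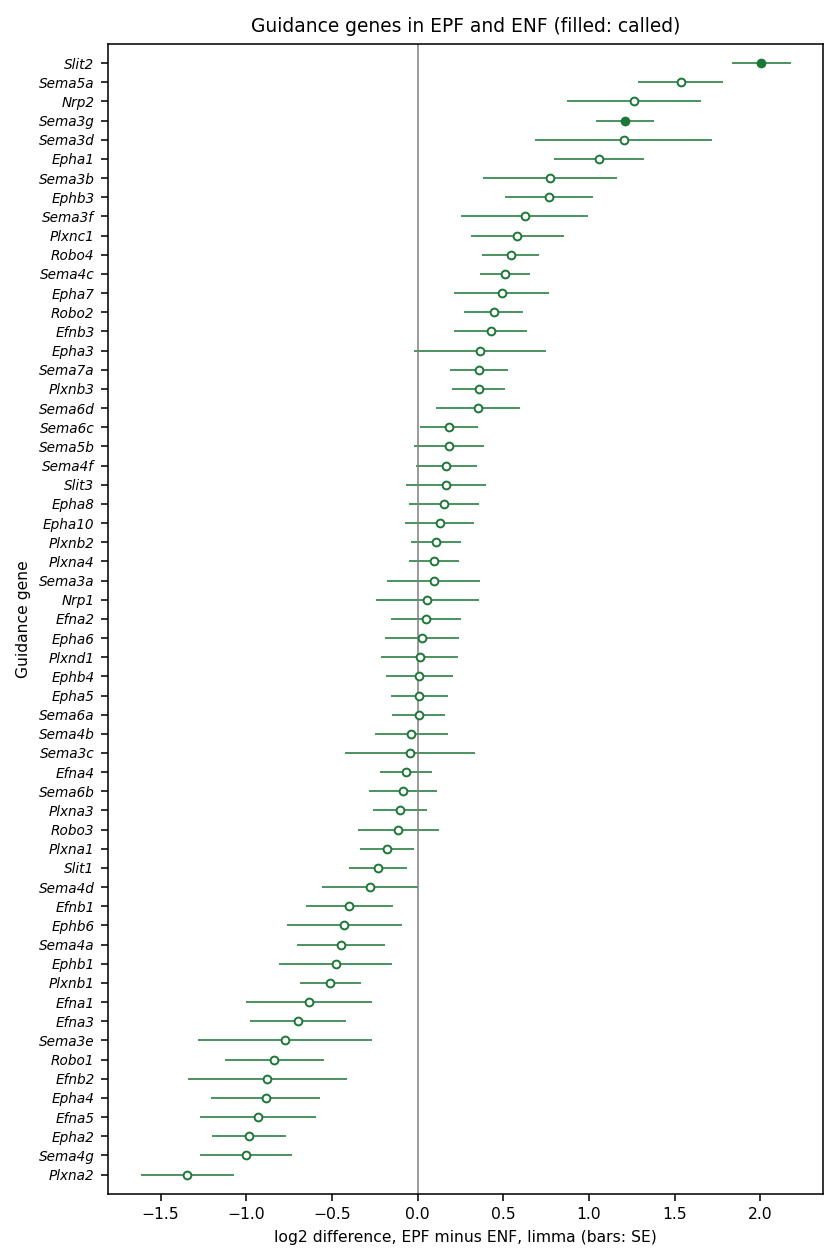
Log2 differences, EPF minus ENF, with SE (x axis) for the 59 guidance genes in order of size, with filled points for the 2 called genes. Slit2 and Sema3g are the filled points, at 2.00 and 1.21, and Plxna2 lies at the low end at -1.34.

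Set beside the site arrays, 8 of 59 members (13.6%) had EPF and ENF arrays that overlapped no site array, against 13.7% of all genes, and array set and labelled age cannot be told apart here. The 5 gaps of at least 2 between the set means (8.47% of members, against 4.9% of all genes) were all in class 3 semaphorins, with Sema3b, Sema3c, Sema3d and Sema3e higher in the EPF and ENF set, by 4.65, 3.97, 2.67 and 2.91, and Sema3f lower, by -2.09. Sema3a and Sema3g differed by -0.18 and 0.64, and arrays of Sema3a, Sema3d, Sema3f and Sema3g overlapped between the sets. The Sema3f gap is that of 1438947_x_at, with a mean of 11.12 over the 18 arrays, beside 6.62 for 1420508_at and 5.64 for 1425840_a_at. Those 2 had 6.16 to 6.47 and 4.06 to 4.98 on EPF and ENF arrays, beside 5.82 to 7.08 and 4.73 to 6.89 on site arrays. Sema3b had 11.06, 11.30 and 10.82 in EPF and 11.00, 9.35 and 10.52 in ENF cells, beside 5.18 to 6.42 on the site arrays. Sema3c had 12.33, 11.44 and 12.94 in EPF and 11.81, 12.51 and 12.51 in ENF cells, beside 7.61 to 9.02. Neither was called between EPF and ENF cells, and the site arrays of both lay far below.
Sema3e, a ligand of Plxnd1, had 7.09, 6.01 and 6.64 in EPF and 8.31, 6.24 and 7.51 in ENF cells, beside 3.26 to 4.89, near background in 3 of the 4 sites. Sema4b, Sema4c and Slit3 were also higher in the EPF and ENF set, by 1.18, 0.76 and 1.16 on average, and Nrp2 was lower by -1.93. Robo3 was near background in EPF and ENF cells, at 3.87 and 3.98, and averaged 4.92 on the site arrays. EPF cells share genotype, reporter gate and body region with Dorsal cells, and their means were 11.06 for Sema3b and 12.23 for Sema3c, beside 5.62 and 8.51 in Dorsal cells.

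Other guidance genes, from lists chosen with earlier results of these data known, were counted in the same fits. Of 16 netrin, RGM and related genes, 5 differed among sites by the F-test (21.1% of all genes), Ntn1, Ntng1, Rgma, Rgmb and Unc5c. Ntn1, the netrin-1 ligand, had 6.59, 6.40 and 6.63 in Oral cells and 8.39, 8.29 and 8.63 in Cranial cells, against 6.78, 8.50 and 8.65 in Ventral and 8.36, 7.81 and 8.82 in Dorsal cells, lower by -1.79 in Oral than Dorsal and by -1.44 in Oral than Ventral cells. Unc5c, a netrin receptor, was higher in Oral than Cranial cells by 0.90, than Ventral by 1.12 and than Dorsal by 1.29. Rgmb was higher in both head groups, by 0.75 to 1.41, Rgma was higher in Cranial than Ventral and Dorsal cells, by 0.69 and 0.71, and Ntng1 was lower in the head, by -0.83 to -0.75. Neo1, a receptor of RGMs and netrins, was lower by -0.83 in Cranial than Dorsal cells, and Dscam by -0.38 in Cranial than Ventral cells.

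A further list of 11 held Flrt, latrophilin and teneurin genes, whose products bind each other and Unc5 receptors, and Unc5b, also counted among the netrin genes. Of these 11, 5 differed among sites by the F-test (21.1% of all genes). Flrt3, higher by 1.23 to 1.43, and Adgrl2, higher by 0.78 to 1.61, passed in all 4 comparisons of a head with a trunk site. Adgrl3 was higher by 1.27 in Cranial than Dorsal, 1.84 in Cranial than Ventral and 1.15 in Oral than Ventral cells, and Flrt2 was lower in Oral cells, by -1.24 against Dorsal and -1.13 against Ventral. Tenm2 also passed for Cranial and Oral minus Dorsal, but its means of 3.62 in Oral, 3.66 in Cranial and 4.03 in Dorsal cells are all near background, so no size is given. Tenm3 was higher in Oral and Cranial than Ventral cells, by 1.35 and 1.43, and was the one gene of these lists called between EPF and ENF cells. It had 8.08, 8.99 and 8.89 in EPF cells, against 6.20, 6.0 and 6.88 in ENF cells, a difference of 2.29 (limma adjusted p = 0.0427).

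Of 36 measured intracellular effectors, 15 differed among sites by the F-test (21.1% of all genes). Dpysl3, a cytoskeletal protein of semaphorin signalling, was higher in the head groups by 1.34 to 1.39, although Ventral 1 at 10.96 lay near the Oral values of 11.05, 11.11 and 11.07. Abl1 (0.60 to 0.94) and Rac1 (0.73 to 0.84) were higher in all 4 comparisons, and Mical1 (-1.55 to -0.88) and Rock1 (-1.18 to -0.74) lower in all 4. Called in some of them were Dpysl2 (0.95 and 0.85 in the Oral comparisons with Dorsal and Ventral), Crmp1 (0.41 and 0.76, likewise), Gipc1 (0.76 to 1.17), Vav3 (0.93 and 1.05 in Cranial cells), Abl2 (0.32 to 0.49), Arhgap39 (0.47 and 0.57 against Dorsal), Arhgef11 (0.70), Tiam1 (0.58), Cdc42 (0.41), Fes (0.89), Srgap3 (0.66) and Mical2 (-0.89). The median difference of the effectors was 0.24 to 0.32 in these comparisons, beside -0.06 to -0.02 over all genes.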

How the data were processed

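RNA of sorted cells was measured on 18 Affymetrix mouse genome expression arrays, 3 in each of 6 groups taken from the titles. The authors deposited log2 expression values made with RMA, per the submitters' processing notes, and whether all 18 arrays were normalized in 1 run is not given in the sources used here. These log2 values were used as deposited. Of 45101 probe sets, 64 controls were left out, and 34945 had 1 gene symbol in GEO's platform annotation, 932 several and 9160 none, of which the single-symbol ones gave 18193 genes. An array carries no read depth, so the number of arrays limits the precision.

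Tests used limma 3.58.1 in R 4.3.3, with lmFit and eBayes, on the 6 EPF and ENF arrays and on the 12 site arrays, with Benjamini-Hochberg adjustment over all genes. The scripts were tested on simulated data. Genes were named by rule: all called members, every array for the 14 lowest F-test p-values and for EPF and ENF calls, the 4 next largest EPF and ENF differences, and in each family the member of highest mean and of widest site range. The members and lists were chosen with earlier results of these data known. Deviations of samples of the same number from their group means correlated at r of -0.38 to 0.30. Such values cannot show whether those samples share an animal, and the labels do not say, so the main fits used no pairing. Alternatives were other probe set rules, a filter on dim genes, eBayes with a trend, array weights, other array subsets, quantile normalization, a replicate block and leaving out each array.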

Additional observations from a re-analysis of the deposited data

How the results depend on the processing

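None of the 56 signed gene results changed sign under the alternatives listed above, and the 18 F-test results have no sign. These runs reuse the same arrays and, but for the mean of all probe sets, the same probe set, so they could hardly change a sign. Probe sets tested singly were not among them, and some had the opposite sign, such as those of Epha4, Plxna2, Epha7, Plxnc1 and Sema3d described above. Counts of called members were as follows. With array weights they were 43 by the F-test (18 without weights), 37 in Cranial minus Dorsal (14), 29 in Oral minus Dorsal (13), 26 in Oral minus Ventral (12), 26 in Cranial minus Ventral (10), 17 in Oral minus Cranial (2) and 13 in Ventral minus Dorsal (0 by limma, 7 at an unadjusted p under 0.05). Weights called 63.8%, 55.6%, 49.3%, 42.5%, 48.7%, 10.6% and 5.23% of all genes in the same order. Without dim genes they were 10 by the F-test, 9 in Cranial minus Dorsal, 5 in Cranial minus Ventral and 1 in Oral minus Cranial, with fewer genes tested. With only the 6 arrays of both groups they were 7 in Cranial minus Dorsal, 7 in Oral minus Dorsal and 19 in Oral minus Cranial. With all 18 arrays in 1 fit they were 8 in EPF minus ENF and 0 in Oral minus Cranial. In EPF minus ENF, the mean of all probe sets called 1, Slit2 being lost, and the arrays of high Xist alone, chosen after seeing the data, called 0. With a replicate block the counts were 1 in EPF minus ENF, 14 by the F-test, 13 in Cranial minus Dorsal and in Oral minus Dorsal, 11 in Oral minus Ventral and 8 in Cranial minus Ventral. In the main fit of the site arrays, each gene has 1 spread shared by the 4 groups. Median SDs over all genes were 0.104 in Cranial, 0.1345 in Oral, 0.1409 in Ventral and 0.2815 in Dorsal cells. The causes of these changes in count were not tested. Leaving out 1 array gave 0 to 2 in EPF minus ENF, 0 to 2 in Oral minus Cranial, 0 to 3 in Ventral minus Dorsal, 8 to 17 in Cranial minus Dorsal, 8 to 20 in Oral minus Dorsal, 6 to 12 in Oral minus Ventral, 7 to 9 in Cranial minus Ventral and 11 to 24 by the F-test.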
